A study of Mus musculus with 42 samples.

Results

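The polyadenylation sites (PASs) of long noncoding RNA (lncRNA) genes were followed through 38 libraries made by 3′READS, a method that sequences the last bases of polyadenylated RNA, so that each read marks the 3′ end of 1 polyadenylated RNA and read counts need no scaling by length. Positions listed for the libraries were joined within 24 nt into 83916 PASs, of which 326 were mitochondrial and 83590 nuclear. A PAS was a member when it lay in an exon, or up to 1000 nt past the end, of a gene that the mm9 annotation types as lincRNA, antisense or processed transcript, and outside every protein-coding gene on that strand. Malat1 and Neat1 were left out, and genes that host small nucleolar RNAs (snoRNAs) were kept. The rule gave 1174 PASs in 643 genes, with 746 PASs in 374 lincRNA genes and 428 in 269 processed transcript genes. No gene of the annotation used carried the type antisense. PASs are named by gene and by rank of reads within the gene, so that Gas5:1 is the site with most reads in Gas5. Another 112 candidates lay inside coding genes and were not used.

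The study exposed 2 mouse cell lines to sodium arsenite (250 µM for 1 h), an oxidative stressor. NIH3T3 fibroblasts gave 26 libraries. Total RNA came from 3 pairs of untreated (NT) and arsenite-treated (AS) cultures, numbered 1, 2 and 4, and from cells left to recover (RC) for 4, 8, 12 or 24 h, with 1 library at each time. RNA labelled with 4-thiouridine (50 µM for 1 h) was split into a newly made fraction (4sU) and the unlabelled flow-through (Ft) from 2 NT cultures, 1 AS culture and 1 RC4 culture. Cytoplasmic lysates of 2 NT and 2 AS cultures gave input RNA and RNA bound by TIA1, an RNA-binding protein of stress granules (RNA immunoprecipitation, RIP). C2C12 cells gave 12 libraries. Proliferating myoblasts (MB) and differentiated myotubes (MT) were each represented by 2 libraries of total RNA, without stress, and by 4 libraries of cytoplasmic RNA (2 NT, 1 AS, 1 RC4). In the labelled and the cytoplasmic C2C12 sets, the 2 NT libraries were harvested at 0 h and at 4 h. The study describes the total RNA comparisons and the TIA1 RIP as made on biological replicates. For the labelled and the cytoplasmic C2C12 sets the sources used here do not say so, and p-values there measure the spread between these libraries, which may be technical.

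lncRNAs are transcripts without a known protein product, and most are capped, spliced and polyadenylated like mRNAs. Some are made mainly for what lies inside them: box C/D and H/ACA snoRNAs are trimmed from the introns of host genes such as Gas5 and the Snhg genes, and microRNAs are excised from hosts such as H19, Mir17hg and Dnm3os. Others act as RNA, such as Xist, which coats the inactive X chromosome, and Cyrano (1700020I14Rik, RefSeq name Oip5os1), which directs the decay of a microRNA.

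Sites that carry the findings are printed below as the 30 nt of transcribed strand that end at the PAS, with AATAAA or ATTAAA, the hexamers bound by the cleavage machinery, in capitals. All are from mm9. The first 4 are downstream ends of host genes for snoRNAs (Gas5, Snhg1, 2810008D09Rik, which RefSeq names Snhg20, and 2700023E23Rik, which RefSeq names Dancr), followed by 4 upstream sites in the same genes.
Gas5:1 (chr1:162968641-162968670, plus strand): ttttaccATTAAAgtgtattataacatgaa
Snhg1:1 (chr19:8800904-8800933, plus strand): ttgttctagcAATAAAtgctctttatgcta
2810008D09Rik:1 (chr11:116940240-116940269, plus strand): gtggctgtaAATAAAtggagcttgaactca
2700023E23Rik:3 (chr5:74490328-74490357, plus strand): ataatctttAATAAAggcttcctgtgtcaa
Gas5:2 (chr1:162967546-162967575, plus strand): gattgattgttaagctgaaacagtatttaa
Snhg1:2 (chr19:8799064-8799093, plus strand): tgcaatgatgtcatcttactactgaaatgg
2810008D09Rik:2 (chr11:116938721-116938750, plus strand): ggtggtcatgtatgatactgcaaacaggag
2700023E23Rik:1 (chr5:74489649-74489678, plus strand): ctttggatcctgtctggagtcacaaatgaa
The upstream sites hold neither hexamer, and each lies at the 3′ end of an annotated snoRNA or of the small Cajal body RNA SCARNA16. Gas5:2 was 5 nt past SNORD79, Snhg1:2 was 1 nt past SNORD27, 2810008D09Rik:2 was 1 nt past SCARNA16 and 2700023E23Rik:1 was 3 nt past the snoRNA AC115823.1.

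The next sites are the most-read ends of genes whose levels are followed through differentiation, labelling, TIA1 binding and arsenite.
H19:1 (chr7:149761436-149761465, minus strand): tgggtccatcAATAAAtacagttacagtca
1700020I14Rik:1 (chr2:119433204-119433233, plus strand): AATAAAgcatgagcagagaatgcactgaaa
Meg3:1 (chr12:110809907-110809936, plus strand): gctttcAATAAAtttcttgttttaactaaa
Mir17hg:1 (chr14:115445920-115445949, plus strand): tttttaAATAAAgttattttgtagcactga
Dnm3os:1 (chr1:164153806-164153835, plus strand): gaagcctAATAAAgcccatttctgaaaatg
Pvt1:1 (chr15:62081053-62081082, plus strand): aaattgaaccctgaatgagggacaatgaca
9430008C03Rik (chr2:158181519-158181548, minus strand): aacagttgtgcAATAAAccccataggttaa
Pvt1:1 is the exception in this set, with neither hexamer in the 30 nt shown.

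Over all members, 44.46% had AATAAA and 14.91% ATTAAA within the 40 nt upstream, against 39.16% and 13.77% of all nuclear PASs. Where neither was found, weaker forms were searched on the transcribed strand only. They were AGTAAA and ACTAAA (another base after the first A), then TATAAA or CATAAA or GATAAA (another first base), then AATATA as well as AATACA and also AATAGA (another base near the end), and last the A-rich AAAAAG. In all, 22.57% of members had none of the 11 hexamers (all nuclear PASs, 29.62%). The most-read site of each gene and the remaining sites of the same genes were unlike: 73.87% of 643 most-read sites had AATAAA or ATTAAA, against 41.81% of 531 other sites. Where either was present, it began a median of 23 nt before the site. Runs of A in the genome just past the site (at least 7 of the 10 bases) were found at 0.77% of members and 2.17% of all nuclear PASs. Of the members, 773 were in exons and 401 (34.2%) past the annotated end, and 463 (39.4%) lay within 24 nt of an annotated transcript end. Counts of sites per gene were uneven: 402 genes had 1 PAS, 36 had 5 or more, and Gas5, H19 and 1700020I14Rik had 17 each.

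snoRNA host genes contributed 81 PASs in 20 genes, and 27 of those (33.3%, in 9 genes) lay within 10 nt of the 3′ end of an annotated snoRNA on the same strand. That was 2.3% of all members, against 204 of 83590 nuclear PASs (0.244%). Of the 27, 26 lay 0 to 10 nt past the snoRNA end, at a median of 2 nt, and 1 lay inside it. Gas5 alone had such sites at SNORD74, SNORD75, SNORD24, SNORD44, SNORD79, SNORD77, Snord47 and SNORD81. AATAAA or ATTAAA stood upstream of 0 of the 27 sites and of 28 of the 54 other sites (51.9%) of snoRNA hosts. At microRNA hairpins there was no counterpart: 0 of 65 PASs of microRNA hosts lay within 10 nt of an annotated hairpin end. The distance to small RNA ends was measured after levels of some of these sites had been seen, and the group is described below without a test of its own. Whether reads there come from host transcripts that end at the site or from polyadenylated products of snoRNA processing was not tested, so a value at such a site is not a level of the host transcript.

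The annotation types are old, and a later RefSeq release (GRCm38.p6, matched by symbol or synonym) types 405 of the genes as lncRNA and 53 as protein-coding, with 116 PASs, while 153 genes were not matched. Coding by that source are 1810058I24Rik, Tmem134, Enho, Bbip1, 2210013O21Rik (Nbdy), 2210020M01Rik (Smim5) and 5430417L22Rik (Inafm2), which are marked as such where their values are given. Another 33 PASs lay within 4 kb past a coding gene and may belong to its transcripts.

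Levels are given as RPM, the reads of a PAS scaled to a common total of nuclear PAS reads (1e+06) in every library. Libraries held 1048335 to 6974664 PAS reads (median 2874186), and the members took 0.377 to 1.231% of them (median 0.684%). Sites with under 5 reads in a library were not listed by the authors, so a site written as not listed had at most 4 reads there. Most members were rare: 900 had a mean level under 1 RPM, 73 had at least 10 RPM, 392 were listed in 1 library and 33 in all 38. The 10 highest held 60.0% of the members' summed RPM, and PASs of snoRNA hosts 51.0%. In bulk RNA, fewer cells with a transcript and less of it per cell cannot be told apart.

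Gas5:1 had the highest mean level of all members in NIH3T3 and none in C2C12. Its level averaged 2528 RPM over the 26 NIH3T3 libraries, from 346 to 6353 RPM, and it was not listed in any of the 12 C2C12 libraries, a difference of at least 1574-fold with 4 reads per library taken as the limit. Gas5:2, by contrast, reached 93.6 RPM in C2C12 myoblasts and 10.9 RPM at most in NIH3T3 cells. Among members with a mean of at least 10 RPM in NIH3T3, 8 of 70 were not listed in any C2C12 library, against 1.73% of all 10439 such PASs. They included the imprinted neighbours Meg3:1 (at least 43.6-fold) and Mirg:1 (at least 20.9-fold). In the other direction it was 6 of 61, against 2.94% of 9812, with Xist:1, Xist:2, Hoxa11as:1 and Gm2694 among them. H19:1 was listed in all 12 C2C12 libraries and in 1 NIH3T3 library, at 0.97 RPM. In untreated libraries Thy1, of the fibroblast markers, stood at 222.7 to 1658 RPM in NIH3T3 and was not listed in C2C12, while the muscle genes Des, Myod1 and Myf5 were listed in C2C12 and not in NIH3T3. The other 4 fibroblast markers did not separate the lines: Col1a1, Col1a2, Col3a1 and Vim were listed in both, and Vim had 7777 RPM on average in MB and 1207 RPM in NIH3T3 total RNA. The sources used here do not say whether the 2 lines were processed side by side, so line and experiment cannot be told apart, and no test was made.

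**Figure D1:**
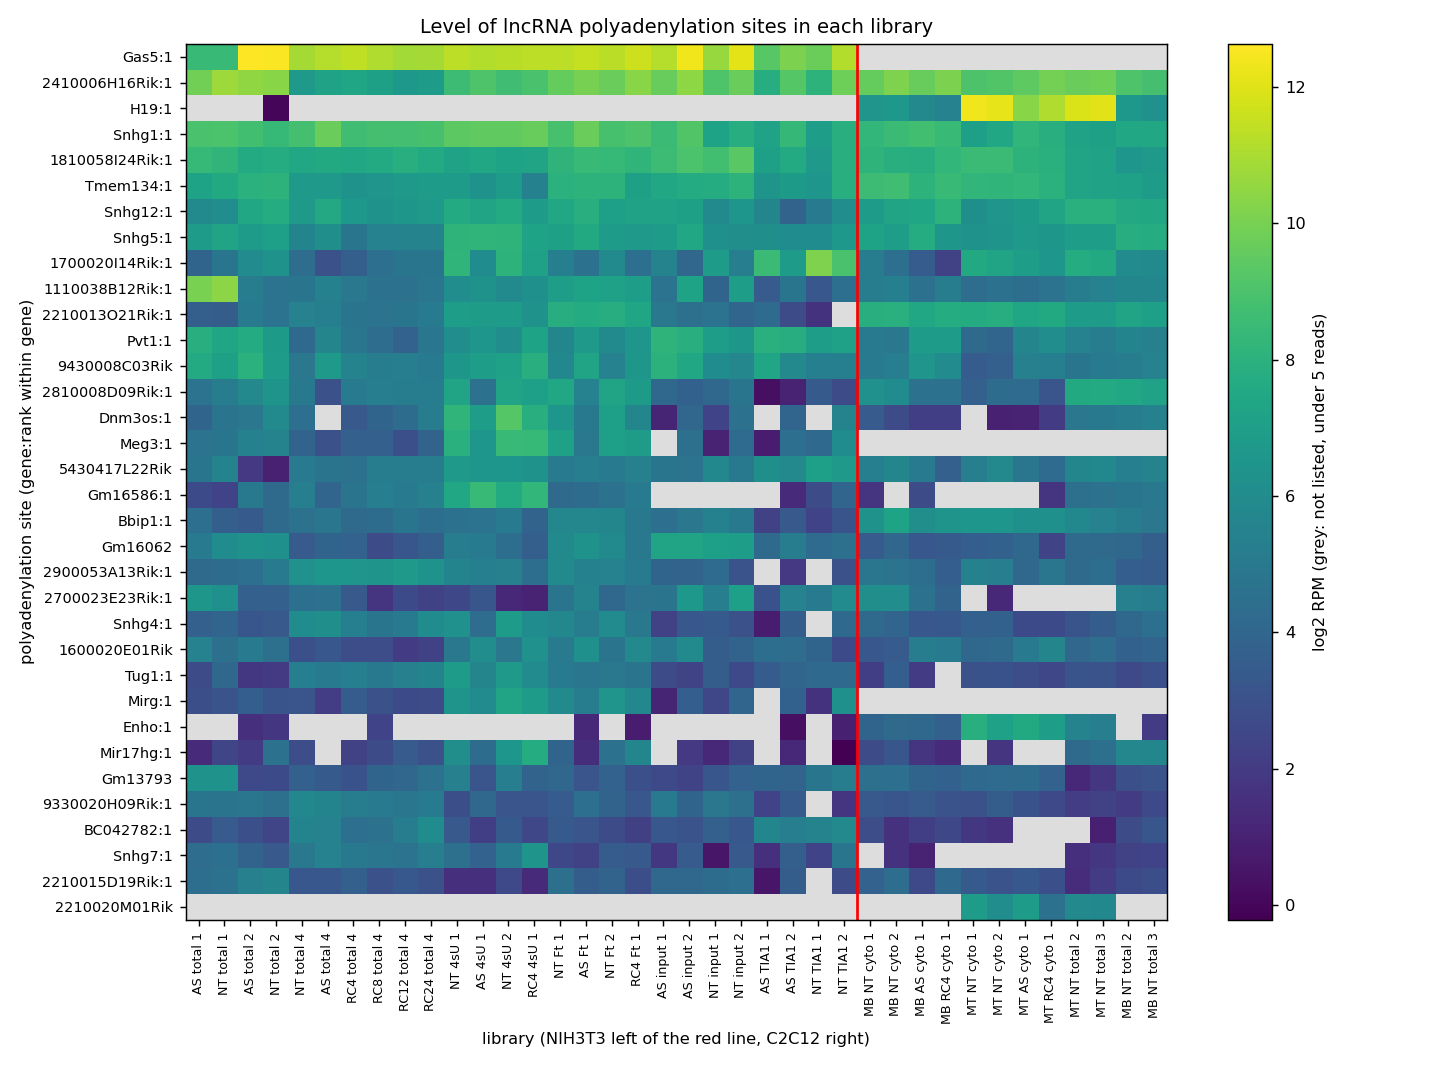
Level of the main PAS of the genes that fit the rule (rows, named by gene and rank, some typed as coding by RefSeq, such as Tmem134) in each of 38 libraries (columns), as log2 RPM. Grey marks a site that was not listed in that library (under 5 reads). NIH3T3 libraries stand left of the red line, where Gas5:1, Meg3:1 and Mirg:1 are filled, and C2C12 libraries right of it, where they are grey and H19:1 is filled.

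Some of these RNAs also differed widely between NIH3T3 cultures of the same kind. Gas5:1 stood at 356 and 346 RPM in the NT and AS libraries of pair 1, at 6118 and 6353 RPM in pair 2 and at 1883 and 2341 RPM in pair 4. 1110038B12Rik:1, the end of another snoRNA host, was at 1361 and 1058 RPM in pair 1 and at 25.6 to 43.2 RPM in the other 2 pairs. 2410006H16Rik:1 was at 1728 and 947 RPM in pair 1, at 1307 and 1430 RPM in pair 2 and at 103 and 148 RPM in pair 4. At Gas5:1 the 3 pairs did not overlap. At 1110038B12Rik:1 pair 1 stood apart, with pairs 2 and 4 overlapping, and at 2410006H16Rik:1 pair 4 stood apart, with pair 2 inside the range of pair 1.

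Myotubes were compared with myoblasts to ask how lncRNA ends change with differentiation. H19, an imprinted RNA that carries a microRNA and is known to rise as muscle cells differentiate, had the highest mean level of all members in C2C12. H19:1 was at 98.9 and 77.5 RPM in MB and at 3881 and 4216 RPM in MT, with no overlap (log2 change 5.68 ± 0.13 SE, edgeR quasi-likelihood test, adjusted p = 3.42e-06, n = 2 each). In the separate cytoplasmic set it went from 91.0 and 98.3 RPM to 5219 and 4545 RPM (5.72 ± 0.20, adjusted p = 0.00191 by edgeR). Markers of the states moved with these values: Myog, Myh3, Ckm, Tnnc2 and Tnnt3 were not listed in MB, and Myog stood at 1137 to 1270 RPM in MT total RNA, while the proliferation marker Mki67 went from 107 to 116 RPM in MB to 14.7 to 16.8 RPM in MT.

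Of 233 members that passed the filter of a mean of 5 reads, 80 were higher and 31 lower in MT at an adjusted p below 0.05, 47.6% of those tested against 41.9% of all 22875 PASs tested (23.1% higher and 18.8% lower). The median log2 change of tested members was 0.48, and that of all PASs 0.04. Cyrano rose together with H19: 1700020I14Rik:1 was at 63.5 and 58.6 RPM in MB and at 214 and 190 RPM in MT (1.88 ± 0.12, adjusted p = 6.24e-05 by edgeR). In cytoplasm it rose by 2.62 ± 0.29. 2410006H16Rik:1, a snoRNA host, rose in total RNA from 554 and 456 RPM to 824 and 886 RPM (0.92 ± 0.11), whereas in the cytoplasmic set it was at 761 and 1135 RPM in MB and at 537 and 570 RPM in MT (-0.74 ± 0.25, adjusted p = 0.111 by edgeR). Enho:1, typed as coding by RefSeq, rose by 4.38 ± 0.54, and 2210020M01Rik, likewise typed as coding, was not listed in MB and stood at 56.2 and 55.2 RPM in MT, at least 48.4-fold higher. Xist was split: Xist:2 rose by 0.98 ± 0.18, while Xist:1 differed by 0.22 ± 0.13 (adjusted p = 0.246 by edgeR).

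Among miRNA hosts 7 of 14 PASs tested were higher and 1 lower, but 5 of the 7 were sites of H19, so this is chiefly 1 gene. The lower one was Mir17hg:1, the end of the host of the miR-17-92 cluster, at 53.3 and 50.9 RPM in MB and 18.5 and 23.4 RPM in MT (-1.15 ± 0.16, adjusted p = 0.0019 by edgeR). Dnm3os:1 differed by -0.21 ± 0.16 and Pvt1:1 by 0.03 ± 0.15, neither past the threshold. Among snoRNA hosts 3 of 22 were higher and 11 lower, with a median of -0.58. That count includes 8 sites at snoRNA 3′ ends, most of which passed the filter only through their reads in MB, where they are high. Of the other 14 sites, 3 were higher and 3 lower, with a median of -0.20.

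Sites at snoRNA 3′ ends are given by their levels. Snhg1:2, at the end of SNORD27, was at 72.7 and 91.6 RPM in MB and 5.43 and 4.26 RPM in MT (-3.94 ± 0.23, adjusted p = 5.02e-05 by edgeR), whereas Snhg1:1 was at 180 and 174 RPM and at 145 and 137 RPM (-0.17 ± 0.10, adjusted p = 0.200 by edgeR). 2810008D09Rik:2, at the end of SCARNA16, fell from 24.6 and 23.0 RPM to 2.60 RPM in 1 MT library and to not listed in the other (-3.92 ± 0.58), while 2810008D09Rik:1 rose by 0.45 ± 0.12. 2700023E23Rik:1 was at 41.8 and 35.8 RPM in MB and not listed in MT, at least 38.2-fold lower. Gas5:2, at the end of SNORD79, was at 59.6 and 70.6 RPM in MB and 11.1 and 6.15 RPM in MT (-2.78 ± 0.25).

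Summed over all 27 such sites, with no filter, the level was 238.6 and 269.0 RPM in MB total RNA and 16.6 and 14.4 RPM in MT, and 387 and 281 RPM against 9.63 and 27.6 RPM in cytoplasm. No MT value overlapped an MB value. Most of the sum comes from the 4 sites described above. Over the 38 libraries 2810008D09Rik:2, 2700023E23Rik:1, Snhg1:2 and Gas5:2 averaged 29.6, 29.2, 15.7 and 13.8 RPM, of 108.58 RPM for all 27. The sum therefore mostly repeats those sites, here and where it is used below. The other 54 PASs of snoRNA hosts summed to 1484 and 1335 RPM in MB and 1638 and 1716 RPM in MT total RNA. The nuclear PASs at snoRNA 3′ ends outside lncRNA genes number 177, and they summed to 543 and 587 RPM in MB and 18.5 and 15.6 RPM in MT total RNA. In cytoplasm they summed to 1053 and 1027 RPM in MB and 27.1 and 44.1 RPM in MT. Sums over all sites are given in place of counts of calls, since a site that passes the filter through MB alone had to differ. Mki67 and the myotube markers change between the same libraries, and their part in this was not tested.

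**Figure D2:**
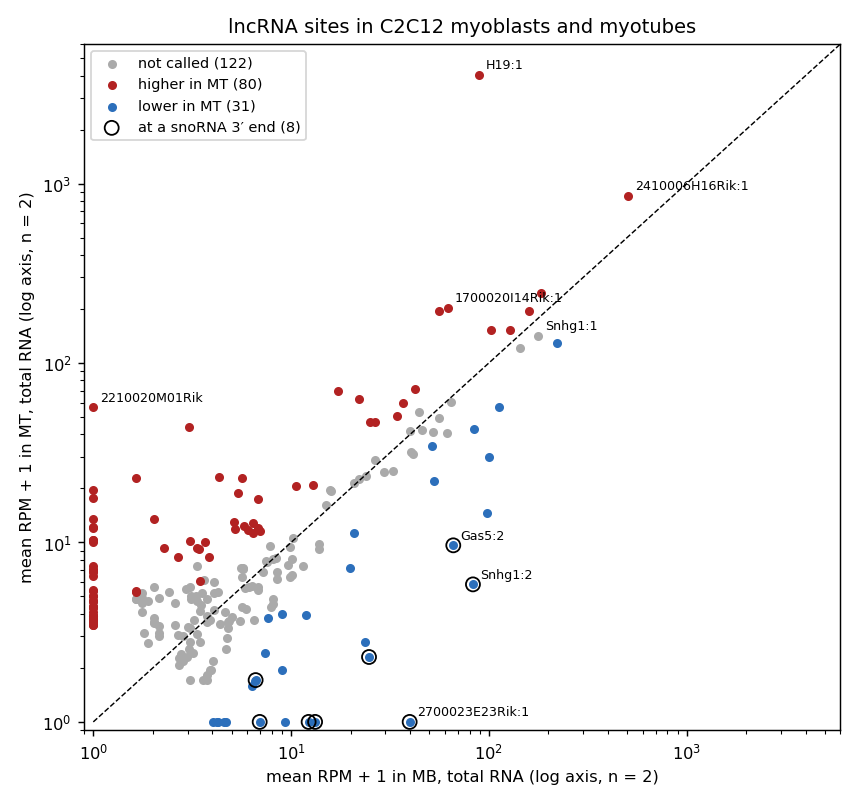
Mean level of each tested lncRNA PAS in MB (horizontal) and MT (vertical) total RNA, as RPM + 1 on log axes, with 2 libraries each. Red points were higher and blue points lower in MT at an adjusted p below 0.05 (edgeR), black rings mark sites within 10 nt of a snoRNA 3′ end, and the dashed line marks equal levels. H19:1 stands highest, and the 8 ringed sites, most of which passed the filter only through MB, lie under the line.

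The cytoplasmic set gave fewer calls: 17 members were higher and 9 lower in MT of 153 tested, against 6.38% and 3.63% of all PASs (10.0% in either direction). Enho:1, typed as coding by RefSeq, rose by 3.48 ± 0.34. 2810008D09Rik:1 was at 77.3 and 65.6 RPM in MB and 13.3 and 20.0 RPM in MT (-2.05 ± 0.31), against its rise in total RNA. The counts of this set rest on both MT libraries, for all PASs as for members. Without the MT NT library of 0 h no member and 2 of 17232 PASs were called, and without that of 4 h no member and 0 of 17096 PASs. Without the MB library of 0 h 39 members were called, with 2341 of 17647 PASs higher and 1074 lower. Without that of 4 h 44 members were called, with 1780 of 17599 PASs higher and 972 lower.

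Flow-through was set against 4sU RNA of the same 4 cultures, to ask which ends were relatively rich in newly made RNA. Both fractions are scaled to the same total, so the ratio of Ft to 4sU ranks RNAs against each other and does not say what share of an RNA is new, with no adjustment made for the number of uridines in each RNA. Of 274 members tested, 26 were higher and 46 lower in Ft (26.3%, all 23720 PASs tested 33.6%, with 14.8% higher and 18.8% lower), with a median log2 ratio of -0.30 against -0.23 for all PASs. 

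miRNA hosts stood on the 4sU side: 0 of 19 PASs tested were higher and 10 lower in Ft, with a median of -1.79. These 19 PASs come from no more than 16 host genes, so some share a gene. A PAS that passed the filter through its 4sU reads alone had to be lower in Ft. Mir155, host of a microRNA of inflammation, was at 6.43, 30.9, 8.22 and 51.9 RPM in 4sU of the NT, AS, NT and RC4 cultures, and not listed, 3.11, not listed and 1.67 RPM in their Ft. It passed the filter through its 4sU reads, so its fitted change is not given. Dnm3os:1, the end of a microRNA host antisense to Dnm3, ranged from 125 to 614 RPM in 4sU and from 31.5 to 131 RPM in Ft (-1.79 ± 0.16, adjusted p = 2.33e-05 by edgeR). Its values overlapped between fractions only through the AS culture, and Ft was below 4sU in each of the 4 cultures. Mir17hg:1 differed by -1.92 ± 0.19, Meg3:1 by -1.10 ± 0.17 and Mirg:1 by -0.58 ± 0.16, all past the threshold.

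Cyrano was on the 4sU side too, where 1700020I14Rik:1 was at 288, 65.3, 270 and 140 RPM in 4sU and at 40.5, 24.5, 58.2 and 22.1 RPM in Ft, in the same order of cultures (-2.08 ± 0.21, adjusted p = 4.48e-05 by edgeR). The 2 fractions did not overlap. Tug1:1, the end of a lncRNA needed in the retina, differed by -1.18 ± 0.19. snoRNA hosts were divided, with 6 higher and 5 lower of 27 and a median of -0.15. Without the 6 sites at snoRNA 3′ ends it was 5 higher and 5 lower of 21, with a median of -0.27. Snhg7:1 (-1.82 ± 0.29) and Snhg5:1 (-0.64 ± 0.17) were lower, and 2410006H16Rik:1 (1.30 ± 0.15), 1110038B12Rik:1 (1.15 ± 0.15) and Gas5:1 (0.39 ± 0.13) higher in Ft. Snhg1:1, at 685 to 789 RPM in 4sU and 469 to 817 RPM in Ft, differed by -0.16 ± 0.15 (adjusted p = 0.469 by edgeR). The coding genes 1810058I24Rik:1 (1.24 ± 0.14) and Tmem134:1 (1.68 ± 0.16) were higher in Ft.

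Sites at snoRNA 3′ ends were rare in 4sU RNA. Summed over the 27 sites they stood at 8.997 and 6.89 RPM in NT 4sU RNA and at 37.3 and 21.5 RPM in the Ft RNA of the same cultures, while the other sites of snoRNA hosts stood at 4863 and 4914 RPM in 4sU and 4832 and 4653 RPM in Ft. 2700023E23Rik:1 was at 6.00, 9.47, 2.39 and 2.10 RPM in 4sU and 26.4, 45.5, 16.8 and 25.8 RPM in Ft (2.87 ± 0.30, adjusted p = 4.97e-05 by edgeR). The sites of this kind outside lncRNA genes summed to 47.1 and 41.6 RPM in NT 4sU RNA and to 196 and 84.1 RPM in NT Ft RNA.

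**Figure D3:**
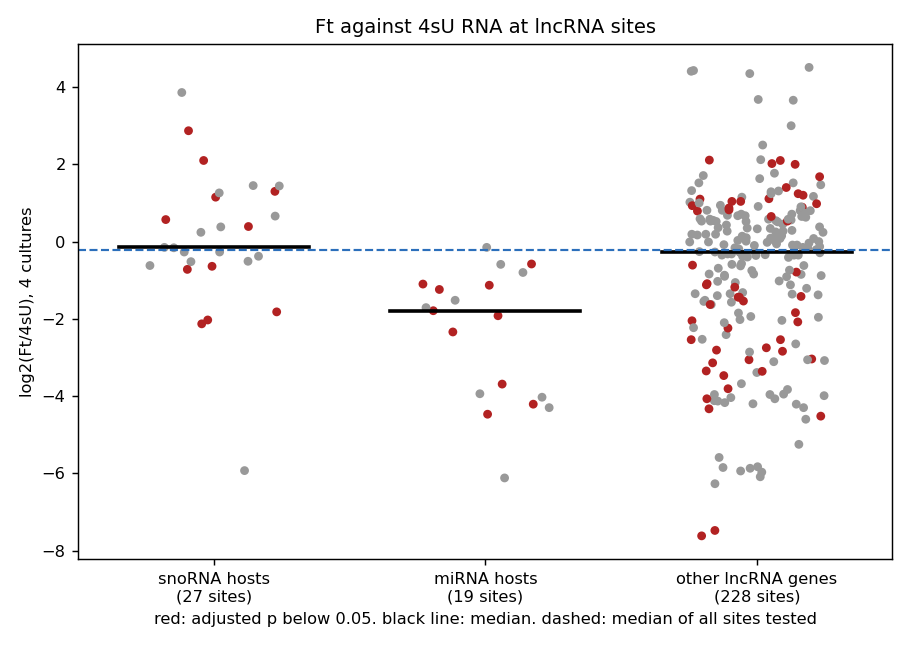
log2 ratio of Ft to 4sU RNA at each tested lncRNA PAS, over 4 cultures, for PASs of snoRNA hosts, of miRNA hosts and of other lncRNA genes. Red points passed an adjusted p of 0.05 (edgeR), black bars are medians, and the dashed line is the median of all PASs tested (-0.23). The bar of miRNA hosts stands at -1.79.

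Cytoplasmic against total RNA of unstressed C2C12 cells asks where the RNAs were. No label pairs the 2 fractions, so fraction and experiment cannot be told apart. Of 198 members tested, 26 were higher and 28 lower in cytoplasm (27.3%, all PASs 24.4%, with 8.99% higher and 15.4% lower), with medians of 0.00 and -0.24. Xist is given by its levels. Xist:1 was at 39.9, 38.4, 39.3 and 42.4 RPM in the 4 total libraries, and in cytoplasm it was at 9.10 RPM in 1 MB library and not listed in the other 3. It passed the filter through total RNA, so its fitted change is not given. miRNA hosts were divided, with 6 of 10 PASs called lower and 1 higher, and 4 of the 10 above 0 (median -0.97). Dnm3os:1 (-3.01 ± 0.51) and Mir17hg:1 (-2.93 ± 0.41) were among the lower ones. A PAS that passed the filter through total RNA alone had to be lower in cytoplasm. H19:1 differed by 0.25 ± 0.13 (adjusted p = 0.181 by edgeR), at 2068 RPM on average in total and 2488 RPM in cytoplasmic RNA.

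snoRNA hosts had 5 of 22 lower and 0 higher, such as 2810008D09Rik:1 (-2.21 ± 0.45), Snhg12:1 (-0.94 ± 0.25) and Snhg5:1 (-0.56 ± 0.11). Without the 8 sites at snoRNA 3′ ends it was 4 of 14 lower and 0 higher. The called higher sites with the highest cytoplasmic levels belong to genes that RefSeq types as coding, among them 1810058I24Rik:1 (1.40 ± 0.12), Tmem134:1 (1.37 ± 0.17), Enho:1 (2.37 ± 0.42) and 2210013O21Rik:1 (0.86 ± 0.11). In NIH3T3 cells, where RIP input stood for cytoplasm, edgeR called 0 of 196 members and 0.0% of all PASs, with 9 members (4.59%, all PASs 3.76%) at an unadjusted p below 0.05, all lower, and 2 called by DESeq2 (0.647% of all PASs). 

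TIA1 RIP was set against input to ask which ends TIA1-bound RNA carried. 1700020I14Rik:1 (Cyrano) was at 116 and 38.9 RPM in NT input, 46.5 and 16.4 RPM in AS input, 1125 and 501 RPM in NT TIA1 RNA and 370.1 and 112 RPM in AS TIA1 RNA. In each of the 4 lysates TIA1 RNA was higher than its input, although values overlapped across lysates (3.02 ± 0.59, adjusted p = 0.017 by edgeR; 3.09 ± 0.26, adjusted p = 6.33e-15, with lysate as a block). 1700020I14Rik:2, a site upstream in the same gene, was at 5.52 and 3.72 RPM in NT input, not listed in either AS input library, and at 23.6 and 37.6 RPM in NT and 8.99 and 25.1 RPM in AS TIA1 RNA. Since neither AS input library lists it, its fitted change is not given. BC042782:1 was at 8.47 to 13.4 RPM in input and 39.4 to 57.1 RPM with TIA1, without overlap (2.13 ± 0.40, adjusted p = 0.0145 by edgeR).

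Of 194 members tested, 3 were higher and 7 lower with TIA1 (5.15%, all PASs 6.8%, with 3.55% higher and 3.25% lower). With lysate as a block 8 were higher and 29 lower (19.1%, all PASs 19.5%, with 9.63% higher and 9.83% lower). Input and RIP of 1 number come from the same lysate. The median of tested members was -0.24 (blocked -0.69), against 0.25 (blocked 0.16) for all PASs, over the same libraries. snoRNA hosts had 0 higher and 2 lower of 24, or 0 and 11 with the block, and medians of -1.03 and -1.14. Of these, 5 were sites at snoRNA 3′ ends. The other 19 had 0 higher and 2 lower, or 0 and 9 with the block, and medians of -0.89 and -1.09. Gas5:1 was at 1598 and 4351 RPM in NT input, 2341 and 5317 RPM in AS input, 865 and 2239 RPM in NT TIA1 and 637 and 1104 RPM in AS TIA1 RNA. It was lower in each of the 4 lysates (-1.58 ± 0.46, adjusted p = 0.0683 by edgeR; blocked -1.58 ± 0.24, adjusted p = 1.87e-07).

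Gm16062 (123 to 159 RPM in input, 18.98 to 35.6 RPM with TIA1, -2.64 ± 0.35) and 1810058I24Rik:1 (typed as coding by RefSeq, -1.59 ± 0.36) were lower without overlap. Pvt1:1 differed by -0.04 ± 0.29 (adjusted p = 0.995 by edgeR). Whether binding changed with arsenite was tested as an interaction, and edgeR called 0 members (0.0% of all PASs), with 6 (3.09%, all PASs 2.73%) at an unadjusted p below 0.05, and DESeq2 with the block called 2 (0.705% of all PASs). For Cyrano the interaction was -0.39 ± 1.1. Within NT or AS libraries alone edgeR called 0 members, against 0.0987% and 0.0% of all PASs. At an unadjusted p below 0.05 there were 21 and 20 members (10.8% and 10.3%), against 14.3% and 12.7% of all PASs.

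**Figure D4:**
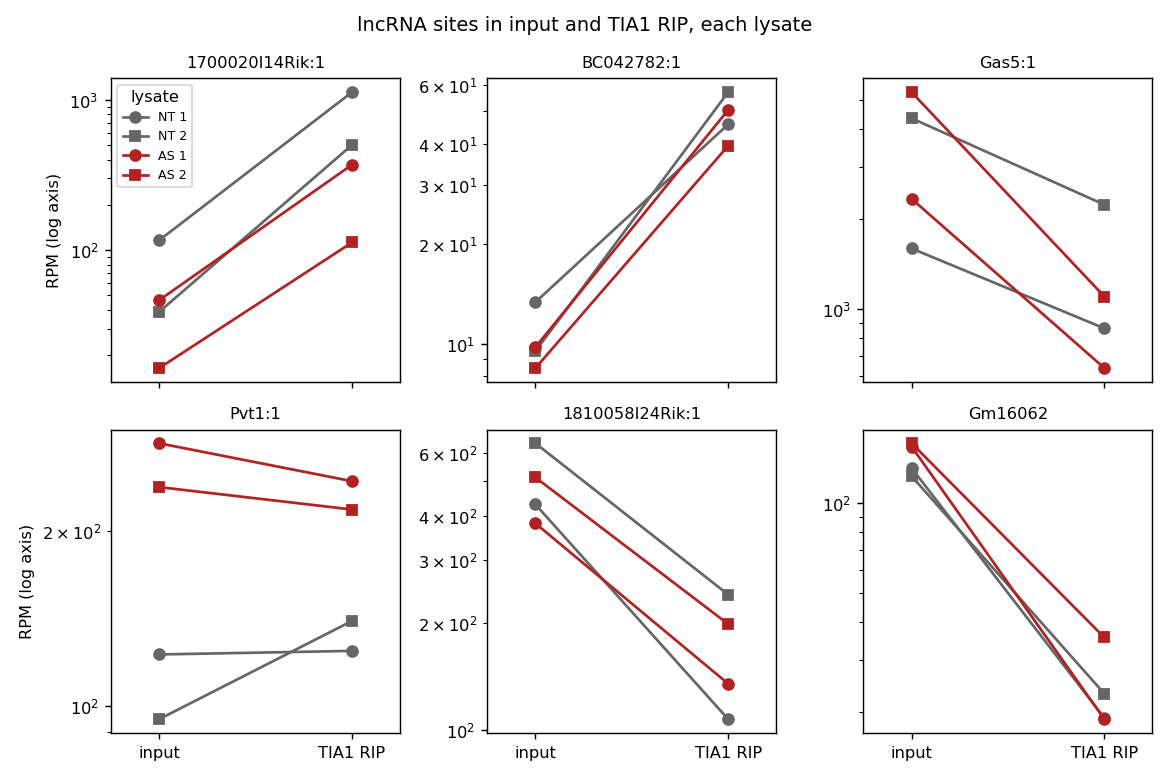
RPM (log axes) of 6 PASs, 1 of them (1810058I24Rik:1) of a gene typed as coding by RefSeq, in input and TIA1 RIP of each of the 4 lysates, with NT in grey, AS in red, replicate 1 as circles and replicate 2 as squares. Lines join the 2 libraries of a lysate. Cyrano (1700020I14Rik:1) and BC042782:1 rise in all 4, Gas5:1, 1810058I24Rik:1 and Gm16062 fall in all 4, and Pvt1:1 is somewhat lower in both AS lysates, level in NT replicate 1 and higher in NT replicate 2.

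Arsenite-treated and untreated cells were compared in each kind of RNA. In NIH3T3 total RNA edgeR called 0 of 241 members and 0.0% of 21791 PASs tested, with 1 member (0.415%, all PASs 0.22%) at an unadjusted p below 0.05. With the pair as a block it was again 0 (0.0% of all PASs), with 11 (4.56%, all PASs 4.15%) at an unadjusted p below 0.05. In RIP input 0 of 194 members were called, against 0.0047% of all PASs, with 6 (3.09%, all PASs 1.33%) at an unadjusted p below 0.05. Data were simulated for the total RNA fit without the block, with its common spread at every site and no pair effect. There edgeR recovered 0.0% of sites changed by 1.5 on the log2 scale, so no call does not show that levels were the same. The blocked fit and AS against NT in input were not simulated, so what they could have found is not known. DESeq2 with the pair as a block, added after these counts were seen, called 3 members higher and 0 lower in total RNA (all PASs 0.73%, with 0.574% higher and 0.156% lower). They were Pvt1:1 (0.86 ± 0.20), 9430008C03Rik (1.09 ± 0.25) and 2700023E23Rik:2 (0.89 ± 0.19). In input it called 5 (all PASs 0.446%, with 0.296% higher and 0.15% lower). There were 3 higher, 9430008C03Rik (1.82 ± 0.40), Pvt1:1 (1.22 ± 0.25) and Snhg1:1 (1.27 ± 0.24), and 2 lower, both sites of Cyrano (1700020I14Rik:1, -1.32 ± 0.29, and 1700020I14Rik:2, not listed in AS input).

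Cytoplasmic C2C12 RNA, in a fit over both states, gave 2 calls by edgeR, Pvt1:1 and 9430008C03Rik. Pvt1, a lncRNA next to Myc, had its end Pvt1:1 at 35.1 and 30.3 RPM in MB NT, 118 RPM in MB AS and 120 RPM in MB RC4 RNA, and at 18.8 and 15.7, 49.1 and 68.5 RPM in MT. AS and RC4 values were above both NT values in each state (AS 1.74 ± 0.20, adjusted p = 0.0142; RC4 2.14 ± 0.20, adjusted p = 0.000889, edgeR). 9430008C03Rik, which RefSeq names Snhg17 and which hosts snoRNAs, was at 32.5 and 38.3 RPM in MB NT, 89.0 RPM in AS and 63.0 RPM in RC4, and at 11.5 and 13.0, 41.7 and 40.9 RPM in MT (AS 1.57 ± 0.24, adjusted p = 0.0434 by edgeR). These were the 2 members of 153 called with AS (1.31%, all PASs 0.208%, with 0.202% higher and 0.00578% lower).

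With RC4, 4 were higher and 2 lower (3.92%, all PASs 5.2%, with 3.0% higher and 2.2% lower), where 1600020E01Rik (1.75 ± 0.26) and Snhg12:1 (1.18 ± 0.20) joined them, and 5430417L22Rik (-1.30 ± 0.29, coding by RefSeq) and 2210015D19Rik:3 (-1.55 ± 0.31) were lower. AS and RC4 share the NT libraries, and leaving out any 1 of the 6 libraries of the AS contrast left 0 or 1 of the 2 calls. By edgeR 0 members (0.0% of all PASs) passed the test of a difference between MT and MB in response, with 13 (8.5%, all PASs 6.92%) at an unadjusted p below 0.05. H19:1 was at 5219 and 4545 RPM in NT, 1294 RPM in AS and 2234 RPM in RC4 myotubes, and at 91.0 and 98.3, 56.2 and 44.8 RPM in myoblasts (AS -1.29 ± 0.28, adjusted p = 0.169 by edgeR).

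A description over 9 sets that hold an AS library and its NT counterpart, made after these values were seen, used the 40 members with at least 20 reads in every set. TIA1 RIP libraries were left out, and the 4sU and Ft sets come from the same cultures. Pvt1:1, 9430008C03Rik and 1600020E01Rik were higher with AS in all 9 (7.5%, against 2.72% of 7829 PASs). Pvt1:1 was higher by 0.47 to 1.84 on the log2 scale, and 9430008C03Rik by 0.01 (in 4sU) to 1.98. In 4sU the AS level of 9430008C03Rik, 123.6 RPM, lay between the NT values of 95.1 and 140.8 RPM, whose reads were summed for the ratio. 1700020I14Rik:1 (-0.35 to -2.07), Tug1:1 (-0.1 to -1.31) and Gm2115:1 (-0.03 to -1.21) were lower in all 9 (7.5%, against 2.41%). Tug1:1 and Gm2115:1 were near 0 in some sets. In total RNA of pair 2 the sites of Tug1 summed to 4.69 RPM in NT and 5.07 RPM in AS. In TIA1 RNA, outside the 9 sets, the sites of Tug1 summed to 20.1 RPM in NT and 13.0 RPM in AS of replicate 1. In replicate 2 the sums were 27.1 RPM in NT and 32.0 RPM in AS. In pair 4, Pvt1:1 went from 18.2 RPM in NT to 50.2 RPM in AS and to 28.6, 20.9, 14.1 and 28.7 RPM at 4, 8, 12 and 24 h of recovery, and 9430008C03Rik from 29.4 to 102.2 and then 45.7, 35.9, 38.2 and 34.7 RPM. Both were highest directly after the stress, in 1 library per time.

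**Figure D5:**
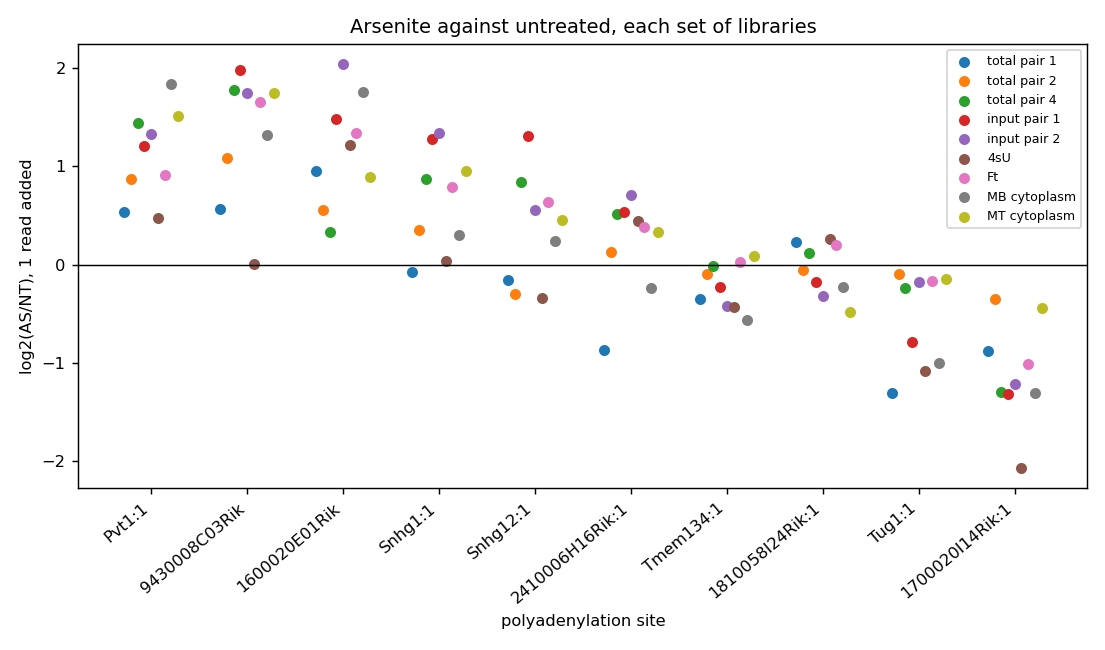
log2 ratio of AS to NT RPM at 10 PASs, 2 of them (Tmem134:1 and 1810058I24Rik:1) of genes typed as coding by RefSeq, in 9 sets of libraries, with each set drawn as its own mark and a line at 0. Pvt1:1, 9430008C03Rik and 1600020E01Rik lie above 0 in all 9 sets, and Tug1:1 and 1700020I14Rik:1 below 0 in all 9.

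Newly made RNA of miRNA hosts was lower in the AS library at most sites, with 1 library per condition and no test. Of 19 PASs with enough reads, 10 were past 2-fold lower and 2 higher in AS 4sU RNA, with a median of -1.66 (all PASs -0.09), and for all members it was 20 higher and 55 lower of 221 (33.9%, all PASs 23.4%, with 8.13% higher and 15.3% lower). The 19 PASs come from no more than 16 host genes, so some share a gene. Mir17hg:1 was at 70.3 and 93.3 RPM in NT, 19.9 RPM in AS and 213.6 RPM in RC4. Dnm3os:1 was at 296 and 614, 125 and 231 RPM, and Meg3:1 at 245 and 365, 93.7 and 330.2 RPM. Mir155 went the other way, at 6.43 and 8.22 RPM in NT, 30.9 RPM in AS and 51.9 RPM in RC4. In RC4 4sU RNA 88 members were past 2-fold higher and 53 lower of 293 (48.1%, all PASs 35.9%, with 16.4% higher and 19.6% lower), from the same NT libraries. In total RNA of pair 4 the members past 2-fold, of all compared, fell with recovery, at 22.7%, 12.6%, 10.2% and 7.5% after 4, 8, 12 and 24 h (all PASs 22.6%, 10.4%, 6.64% and 5.05%), all against 1 NT library. Between AS and NT total RNA the members past 2-fold were 18 of 158 in pair 1 (11.4%), 29 of 237 in pair 2 (12.2%) and 11 of 83 in pair 4 (13.3%), against 7.57%, 8.55% and 7.06% of all PASs. In Ft RNA they were 22 higher and 27 lower of 191 with AS (25.7%, all PASs 13.1%), and 27 higher and 54 lower of 197 with RC4 (41.1%, all PASs 37.1%).

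At the 27 sites at snoRNA 3′ ends the summed level with arsenite is given for each set, with no test. In NIH3T3 total RNA it went from 215 to 425 RPM in pair 1, from 27.8 to 96.5 RPM in pair 2 and from 62.2 to 175 RPM in pair 4, while the other sites of snoRNA hosts went from 4964 to 3742, from 8751 to 9234 and from 3040 to 4125 RPM. It was higher with AS in each pair, although NT of pair 1 exceeded AS of pairs 2 and 4. In 4sU RNA it was 8.997 and 6.89 RPM in NT and 39.4 RPM in AS, and in Ft 37.3 and 21.5 and 112 RPM. In pair 4 it then stood at 53.4, 36.5, 42.3 and 13.9 RPM at 4, 8, 12 and 24 h. In input it was 56.3 and 313 RPM in NT and 71.3 and 282 RPM in AS, higher with AS in 1 pair and lower in the other. In C2C12 cytoplasm it was 387 and 281 RPM in NT and 231 RPM in AS myoblasts, and 9.63 and 27.6 RPM in NT and 6.66 RPM in AS myotubes, so AS was below both NT values in each state.

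The 177 sites at snoRNA 3′ ends outside lncRNA genes summed to 1736 RPM in NT and 3358 RPM in AS of pair 1, 711 and 1089 RPM in pair 2 and 622 and 1305 RPM in pair 4. In input they went from 1101 to 1846 RPM in pair 1 and from 3828 to 4795 RPM in pair 2. In C2C12 cytoplasm they were at 1053 and 1027 RPM in NT and 1319 RPM in AS myoblasts, and at 27.1 and 44.1 RPM in NT and 90.8 RPM in AS myotubes. These sums were higher with AS in all of these sets, unlike those of the lncRNA sites in cytoplasm. By edgeR 0 of 12 lncRNA sites and 0 of 86 others passed in total RNA, and 0 of 5 and 0 of 67 in input.

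The choice between sites in a gene was described by the share of reads at the downstream of the 2 most-read PASs, a measure added after the data were seen, over lncRNA genes with at least 20 reads. It was over 10 points lower with AS in 6 of 59 genes in pair 1, 8 of 78 in pair 2 and 4 of 35 in pair 4 (all genes 8.36%, 7.51% and 8.17%), and in 10 of 65 in 4sU RNA (15.4% of all genes). It was over 10 points higher in 6, 6 and 0 genes of the 3 pairs (all genes 6.1%, 5.76% and 4.96%) and in 5 in 4sU RNA (4.8% of all genes). Values are given for 2 snoRNA hosts whose upstream site is at a snoRNA 3′ end, picked for that after the values were seen. In 2810008D09Rik the share fell from 27.5% to 9.2% in pair 1, from 96.0% to 88.2% in pair 2 and from 100.0% to 26.5% in pair 4, the last over 45 and 34 reads. In 1110038B12Rik it fell from 88.8% to 71.5% in pair 2 and from 86.7% to 61.2% in pair 4, and from 99.3% to 98.9% in pair 1. Between MB and MT the share in 2810008D09Rik rose, from 86.9% to 99.3%. In Snhg1, another host picked after the values were seen, it went from 67.9% to 96.7%. The share of Snhg1 with AS and that of 1110038B12Rik in MB and MT are not given here. Over lncRNA genes it was over 10 points lower in 8 and higher in 5 of 73 in MT, against 5.62% and 11.6% of all genes.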

How the data were processed

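Polyadenylated 3′ ends were measured by 3′READS in 38 libraries. Per the labels and the study's methods, the authors removed adapters with cutadapt and aligned reads to mm9 with Bowtie2 (versions not given in the sources used here). A read was used only if its mapping quality was 10 or higher and it kept 2 or more Ts that the genome does not explain, which marks a true poly(A) tail. Neighbouring positions were merged into sites, and the authors deposited raw counts of reads for each site and library, with no value under 5. RNA-seq of 4 further samples (mapped with STAR) was not used here, because 20 member genes appear in it by symbol and RefSeq types 17 of them as coding.

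From these counts, sites were joined across libraries within 24 nt and placed on the GENCODE annotation of mm9. The members and gene lists were chosen with earlier results of these data known. PASs with a mean of at least 5 reads in a comparison were tested with edgeR 4.0.16 (quasi-likelihood, TMM normalization, R 4.3.3, limma 3.58.1), with Benjamini-Hochberg adjustment over all nuclear PASs tested and a threshold of 0.05. Ft and 4sU RNA were fitted with culture as a block, and cytoplasmic C2C12 RNA with state and treatment. DESeq2 1.42.0, median-ratio normalization, no filter, replicate blocks and leaving out each library were alternatives. The procedure was tested on simulated data. Single libraries were compared as log2 ratios of RPM with 1 read added, for sites with at least 20 reads, and carry no test. Tables and figures were made with Python 3.11.15, pandas 2.3.3, numpy 2.4.6, scipy 1.17.1 and matplotlib 3.10.9. Counting error alone limits a site of few reads, and reads without molecular identifiers are not independent molecules.

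Named PASs were the most-read PAS of each listed gene, the 5 called members with the largest and the 5 with the smallest log2 change in each comparison among those with a mean of at least 20 reads, the 10 with the highest mean level, and PASs with at least 10% of a named gene's reads. Other sites at snoRNA 3′ ends and those described across the 9 arsenite sets were added after their values were seen. Numbers pair NT and AS total RNA, where deviations from group means correlated at 0.825, 0.847 and 0.774 within pairs. Across pairs the values were -0.306 to -0.482, but the centring on group means pushes these below 0, so they add no support. Input and TIA1 RNA of 1 number are from the same lysate (0.255 in NT and 0.236 in AS). With 2 libraries in a group, the value across numbers is the same with its sign turned and adds nothing.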

Additional observations from a re-analysis of the deposited data

How the results depend on the processing

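Counts of called members moved mostly with the pairing and the tool. With DESeq2 and the replicate block, chosen after the data were seen, the count was 3 instead of 0 for AS in total RNA, 5 instead of 0 in input, 48 instead of 111 for MT against MB in total RNA, 54 instead of 10 for TIA1 and 2 instead of 0 for the TIA1 interaction. With the replicate block in edgeR it was 37 for TIA1, 77 for MT against MB, whose numbers share no more than a number (correlation 0.025), and 0 for AS in total RNA, in input and for the interaction. Without a replicate block it was 35 instead of 72 for Ft against 4sU. DESeq2 alone gave 19 for TIA1, 2 for NIH3T3 cytoplasm against total RNA, 4 instead of 2 for AS and 12 instead of 6 for RC4 in C2C12 cytoplasm. With no filter the count was 20 for TIA1 and 5 for NIH3T3 cytoplasm, and TIA1 gave 0 in NT or AS libraries alone. Counts over all PASs moved too. With DESeq2 and the block 0.73%, 0.446% and 0.705% of all PASs were called for AS in total RNA, in input and for the TIA1 interaction. For MT against MB it called 2918 of 22875 PASs higher and 2400 lower, instead of 5287 and 4307. With the block in edgeR 19.5% of all PASs were called for TIA1, instead of 6.8%. Shares over all PASs for the other settings are not given here. The cause was not tested.

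Leaving out 1 library gave 81 to 118 for MT against MB in total RNA, 0 to 44 in cytoplasm (26 with all), 46 to 68 for Ft against 4sU, 33 to 58 for C2C12 cytoplasm against total RNA (54 with all, 35 and 33 without either MT total library), 2 to 14 for TIA1, 0 to 1 for AS and 1 to 9 for RC4 in C2C12 cytoplasm (2 without the MB and 1 without the MT RC4 library), and 0 to 0 for the other comparisons. Over all PASs, leaving out 1 library gave 3601 to 5584 higher and 3008 to 3713 lower for MT against MB in total RNA. With all libraries it was 5287 and 4307. Ft against 4sU was 46 members without the NT 4sU library of 4 h. TIA1 fell to 4 or 3 without an AS input library, to 3 or 2 without an NT input library and to 3 or 6 without an AS TIA1 library. Without genes that RefSeq types as coding, 92 of the 111, 55 of the 72 and 36 of the 54 calls were left for MT against MB, Ft against 4sU and C2C12 cytoplasm, and without sites near coding genes 109, 69 and 52.

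Single-library counts past 2-fold fell as sites with few reads were left out. With at least 50 reads the count was 8 instead of 22 at RC4, 2 instead of 11 at RC8, 0 instead of 9 at RC12, 1 instead of 6 at RC24, 5, 11 and 5 instead of 18, 29 and 11 in pairs 1, 2 and 4, 44 instead of 75 in AS 4sU, 64 instead of 141 in RC4 4sU, 16 instead of 49 in AS Ft and 33 instead of 81 in RC4 Ft RNA. With 5 reads added it was 13 at RC4, 5 at RC12 and 3 at RC24. Shares over all PASs at these 2 settings are not given here, so whether members fell more than other PASs is not shown. Of 1359 alternatives to 129 named results, 1108 kept direction and call, 251 lost the call and 0 turned direction.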
